A study of Homo sapiens with 38 samples.

Results

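The core Sp1 sites are the peaks of the Sp1 WT list, made with mouse anti-FLAG, that overlap by at least 1 bp a peak in each of 4 other lists: the Sp1 DBD and the EWS IDR-Sp1 DBD with mouse anti-FLAG, and the parental line with rabbit anti-V5 and with mouse anti-V5. Of the 5151 Sp1 WT peaks, 579 met this rule, which is 11.2%. There, full-length Sp1, its DNA-binding domain (DBD), a chimera with a foreign N-terminal intrinsically disordered region (IDR) and endogenous Sp1 all gave a reproducible peak. The Sp1 DBD construct of the paper lacks the N-terminal IDR of Sp1 but keeps its short C-terminal IDR. The sites were thus chosen by the measured peak calls of these 5 lists, so the overlap, rank, width and summit of the core sites in them are given below as descriptions, with no test.

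The data are from CUT&RUN, a cleavage assay in which an antibody directs a nuclease to a chromatin protein so that the DNA beside it is released and sequenced. All lines derive from U2OS, an osteosarcoma line, edited so that its own Sp1 is fused to V5 and Halo tags. The parental cells carry no further construct. The Sp1 WT, Sp1 DBD and EWS IDR-Sp1 DBD lines carry in addition a SNAPf- and FLAG-tagged construct at the AAVS1 locus, induced with doxycycline (1 μg/ml) for 36 hours before and 36 hours after cells with the construct were sorted, so endogenous Sp1 was present in every FLAG library as well. The labels give the parental cells the same doxycycline treatment and sorting. Each list was made by the authors from 2 biological replicates and has no replicates of its own. Beside the 5151 Sp1 WT peaks there were 3277 with the Sp1 DBD, 2535 with the EWS IDR-Sp1 DBD, 1987 with rabbit anti-V5 and 1830 with mouse anti-V5. The lists hold no read totals, and the depth behind each was not used here.

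Sp1 is a broadly expressed activator whose C-terminal zinc fingers read the GC box, a short G-rich element found in the CpG-rich promoters of many constitutively expressed genes. Its N-terminal IDR, rich in glutamine, serine and threonine, contacts coactivators and other molecules of Sp1. The EWS IDR comes from an RNA-binding protein of the FET family and does not bind DNA by itself.

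The following lines show the DNA at the merged Sp1 WT summit of core sites high in mean rank. They give the sequence of hg38, forward strand, from 50 bp before to 50 bp after that summit. Summits of other lists and of single Sp1 WT replicates can lie outside the line. Shown are the 8 core sites with the highest mean rank over the 5 lists whose window lies outside annotated exons and repeated sequence. Repeated sequence is taken as 50% or more of the 31-base words around the summit having several copies in hg38. The site at ENSG00000248103 was under that limit, with 43.3% of such words. Capitals mark each GC box, GGGCGG or its reverse complement CCGCCC. The windows are at chr19:8832727-8832827 (ENSG00000269400, an lncRNA, in an intron of MBD3L1), chr19:17470047-17470147 (an intron of SLC27A1, a fatty acid transporter), chr5:181281695-181281795 (an intron of the lncRNA ENSG00000248103), chr9:133459806-133459906 (between genes, 109 bp from a start of CACFD1), chr19:54137216-54137316 (between genes, 483 bp from a start of CNOT3, a subunit of the CCR4-NOT deadenylase), chr7:25862553-25862653 (between genes, 7281 bp from the nearest start, of the lncRNA ENSG00000290106), chr20:33993410-33993510 (an intron of RALY-AS1, 186 bp from a start of RALY, an RNA-binding protein) and chr19:8525766-8525866 (an intron of MYO1F, an unconventional myosin).
ENSG00000269400: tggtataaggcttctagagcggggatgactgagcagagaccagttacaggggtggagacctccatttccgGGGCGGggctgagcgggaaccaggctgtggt
SLC27A1: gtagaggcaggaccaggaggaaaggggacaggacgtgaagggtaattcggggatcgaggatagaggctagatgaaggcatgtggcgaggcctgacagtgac
ENSG00000248103: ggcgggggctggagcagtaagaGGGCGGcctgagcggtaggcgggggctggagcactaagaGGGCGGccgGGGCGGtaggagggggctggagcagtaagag
CACFD1: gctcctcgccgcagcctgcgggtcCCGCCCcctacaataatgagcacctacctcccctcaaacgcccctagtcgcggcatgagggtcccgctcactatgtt
CNOT3: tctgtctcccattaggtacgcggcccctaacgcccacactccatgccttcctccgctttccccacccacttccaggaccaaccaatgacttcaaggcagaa
ENSG00000290106: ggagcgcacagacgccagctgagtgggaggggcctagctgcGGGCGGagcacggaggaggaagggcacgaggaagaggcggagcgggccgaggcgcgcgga
RALY: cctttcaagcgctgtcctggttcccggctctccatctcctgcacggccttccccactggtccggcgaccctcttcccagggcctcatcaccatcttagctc
MYO1F: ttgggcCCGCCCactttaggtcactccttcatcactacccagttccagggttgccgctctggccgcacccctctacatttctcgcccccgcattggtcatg

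GC boxes were present in 5 of these 8 windows, with 3 in the window of ENSG00000248103. Counting bases from 1 at the left of each line, the Sp1 WT summit is base 51. In the CACFD1 window the GC box began at base 25, the summits of the Sp1 DBD, the EWS IDR-Sp1 DBD and rabbit anti-V5 were all at base 45 and that of mouse anti-V5 at base 17, so the box lay between the outermost summits. In the ENSG00000248103 window the first box began at base 23 and the 5 summits fell between base 23 and base 64. The CNOT3 window held no GC box, and the other 4 summits lay to the right of the Sp1 WT summit, at base 117 with the Sp1 DBD, 106 with the EWS IDR-Sp1 DBD, 126 with rabbit anti-V5 and 91 with mouse anti-V5. All of these but the last were outside the line, as were both Sp1 WT replicate summits, at −64 and 65 bp from the merged one. The windows of SLC27A1 and RALY held no GC box either, but 2 and 4 GC boxes lay within 100 bp of their Sp1 WT summits. Their mouse anti-V5 summits, at bases −43 and −28, were outside the line.

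Most Sp1 WT peaks were shared by some of the 4 other lists but not by all. Of the 5151 peaks, 1773 overlapped none of the 4 other lists, 1068 overlapped 1, 1166 overlapped 2, 565 overlapped 3 and 579 overlapped all 4. The list most often missing among the 565 peaks in 3 lists was the EWS IDR-Sp1 DBD, missing from 291 (51.5%), against 120 for rabbit anti-V5, 92 for mouse anti-V5 and 62 for the Sp1 DBD. Of the 1250 Sp1 WT peaks in both anti-V5 lists, 46.3% were core, and of the 1485 in both the Sp1 DBD and the EWS IDR-Sp1 DBD lists, 39.0%.

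**Figure D1:**
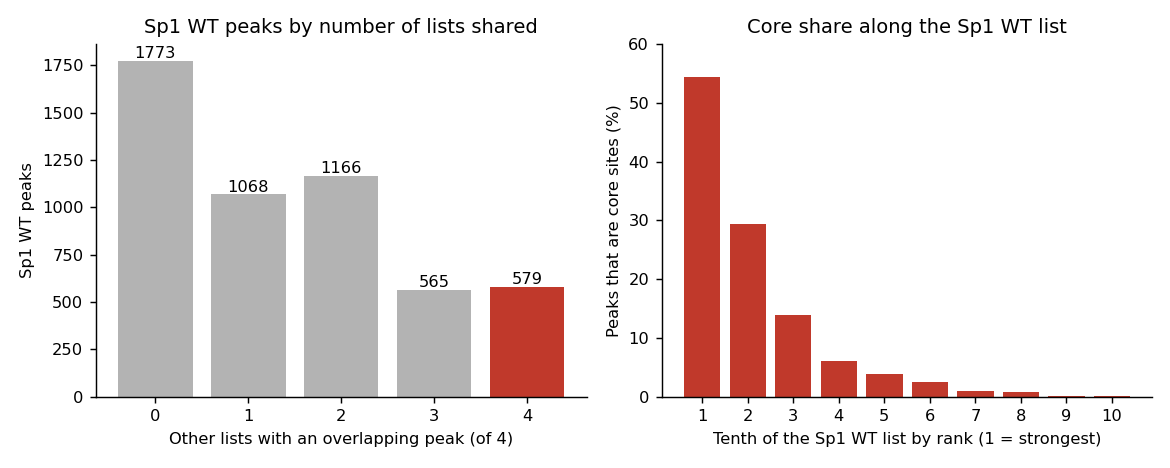
Left, number of Sp1 WT peaks (y axis) by how many of the 4 other lists overlap them (x axis), with the 579 core sites in red. Right, percent of the peaks in each 10% of the Sp1 WT list, ordered by −log10 p from the strongest 10%, that are core sites. The share falls from 54.4% in the strongest 10% to 0.201% in the weakest 10%.

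No core site met the overlap part of the rule narrowly. Every core site overlapped each list by at least 211 bp, and the shortest overlaps were at RIMOC1 (211 bp), MFSD14B (216 bp) and UCKL1 (220 bp), in each case with the EWS IDR-Sp1 DBD list. Some peak calls were near the weak end of a list. Core sites ranked as low as 95.3% of list length with the Sp1 DBD and 99.1% with the EWS IDR-Sp1 DBD. With rabbit and mouse anti-V5 the lowest were at 99.2% and 100%. The authors limited each list to an irreproducible discovery rate of at most 0.1, a measure of reproducibility between replicates that is also shortened to IDR. Where a limit is given with it, IDR means this rate and not a disordered region. At an IDR of at most 0.05, 466 core sites remained, and at 0.01, 223. Just outside the rule, only 11 of the 565 peaks in 3 lists lay within 5000 bp of a peak of the list they missed. The 3 nearest all missed the EWS IDR-Sp1 DBD list, by 258 bp on an unplaced scaffold, by 711 bp at LIN54, a subunit of the DREAM cell-cycle complex, and by 1343 bp near TRAPPC9.

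Core sites lay at the strong end of the Sp1 WT list. By the authors' −log10 p of the merged peak, 477 of the 579 (82.4%) were in the strongest 25% of that list, 78 in the next 25%, 22 in the 25% after that and 2 in the weakest 25%. Fewer were in the strongest 25% of the other lists: 352 (60.8%) with the Sp1 DBD, 251 (43.4%) with the EWS IDR-Sp1 DBD, 237 (40.9%) with rabbit anti-V5 and 239 (41.3%) with mouse anti-V5. The median rank, as a percent of list length, was 10.6% in the Sp1 WT list, 19.2% in the Sp1 DBD list, 31.5% in the EWS IDR-Sp1 DBD list, 32.6% with rabbit anti-V5 and 31.04% with mouse anti-V5. The lists differ in length, and a shorter list fills a larger part of itself with the same 579 sites: they made up 11.2% of the Sp1 WT list and 31.6% of the mouse anti-V5 list. Every list gave each core site a peak of its own, since 579 distinct peaks carried them in each.

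The order of core sites was not the same in all lists. A site's rank spanned a median of 40.9 percentage points over the 5 lists (interquartile range 23.6 to 58.0). Over the 579 sites, Spearman's rho of −log10 p between single replicates was 0.845 for rabbit against mouse anti-V5 and 0.719 for the Sp1 DBD against the EWS IDR-Sp1 DBD, each a mean of 4 pairs of replicates. It was 0.640 for Sp1 WT against mouse anti-V5 and 0.630 for Sp1 WT against the Sp1 DBD. The lowest values were 0.278 and 0.328, for the EWS IDR-Sp1 DBD against rabbit and mouse anti-V5. Between the 2 replicates of a list, rho was 0.762 to 0.900. The points are the same sites in every pair, the FLAG lists share an antibody and both anti-V5 lists share a line. These correlations are descriptions.

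At the top of the order stood 12 sites, by mean rank over the 5 lists. The first was in an intron of the lncRNA ENSG00000286374 at chr11:134656179-134657504, ranked 2, 1, 4, 56 and 23 in the Sp1 WT, Sp1 DBD, EWS IDR-Sp1 DBD, rabbit anti-V5 and mouse anti-V5 lists. Each word of 31 bases near its summit is found elsewhere in hg38 too (100%), so the sequence there is not unique at that length. The study's paired reads were longer, and whether they could be placed at this site was not tested. The same measure was 52.0% at the second site, LINC01115, and 64.3% at the site in an intron of CLPTM1L, and it was 43.3% or lower at the other 9. The highest site in single-copy sequence was at the divergent starts of NPC2, which carries cholesterol in lysosomes, and ISCA2, which assembles mitochondrial iron-sulfur clusters (chr14:74492833-74494229, with its summit in an exon of NPC2 and 5 GC boxes within 100 bp).

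At NPC2 the −log10 p in the 2 replicates was 83.1 and 120.0 with Sp1 WT, 56.2 and 62.3 with the Sp1 DBD, and 56.2 and 64.2 with the EWS IDR-Sp1 DBD. It was 98.0 and 128.9 with rabbit anti-V5 and 117.1 and 196.1 with mouse anti-V5. The site ranked 48, 54, 32, 55 and 63, a span of 2.51 percentage points of list length. The replicate written second in the list had the larger value at 567 of the 579 core sites with Sp1 WT, 403 with the Sp1 DBD, 461 with the EWS IDR-Sp1 DBD, 546 with rabbit anti-V5 and 576 with mouse anti-V5, and the ranks rest on the smaller of both. These values depend on the depth and control of each library and were compared only as ranks within a list.

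The others of the 12 were at ENSG00000269400 (with the starts of MBD3L1 and the zinc finger gene ZNF558 within 1000 bp), SLC27A1, ENSG00000248103, IMPA2, an inositol monophosphatase, CACFD1, CNOT3, SERTAD3, a SERTA-domain transcriptional regulator, and PLCD1, a phospholipase C. Several were uneven across lists. IMPA2 ranked 4 and 3 in the Sp1 DBD and EWS IDR-Sp1 DBD lists but 139 and 113 with anti-V5. SLC27A1 went the other way, at 8 and 25 with anti-V5 and 223 in the EWS IDR-Sp1 DBD list. CLPTM1L ranked 6, 9, 14 and 2 in 4 lists and 558 in the Sp1 DBD list.

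In the strongest 10% of every list stood 27 core sites, and 114 (19.7%) were in the strongest 25% of every list. The 27 included 11 of the 12 above, all but CLPTM1L. Among the rest were RALY, CYTH2, BRPF1, a scaffold of histone acetyltransferase complexes, RNF31 with PSME2, RAB4B, a GTPase of endosomal recycling, RPS6KA2, a ribosomal S6 kinase, CD82, a tetraspanin, and FAH, the last enzyme of tyrosine breakdown. FAH was the most even of these, with ranks of 303, 197, 155, 155 and 137 and a span of 1.92 percentage points.

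Near the bottom were SAR1A, a GTPase of COPII vesicles, SLC31A1 with FKBP15, a copper importer and its neighbour, ARL3 with SFXN2, and FER, a tyrosine kinase. FER ranked 3606 of 5151 in the Sp1 WT list and 1783 of 3277 in the Sp1 DBD list. Its −log10 p in the 2 replicates was 13.9 and 59.4 with Sp1 WT, 18.4 and 15.2 with the Sp1 DBD, 10.7 and 18.7 with the EWS IDR-Sp1 DBD, 9.3 and 24.8 with rabbit anti-V5 and 13.3 and 31.1 with mouse anti-V5. These 4 sites were within 95 bp of an annotated start, each with 1 to 3 GC boxes within 100 bp of the summit.

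Across lists the same site was widest with Sp1 WT. The median width at core sites was 1262 bp with Sp1 WT (interquartile range 944.5 to 1576), 1078 bp with the Sp1 DBD, 850 bp with the EWS IDR-Sp1 DBD, 709 bp with rabbit anti-V5 and 748 bp with mouse anti-V5. The Sp1 WT peak was the widest of the 5 at 388 sites and the narrowest at 1, whereas the rabbit anti-V5 peak was the narrowest at 250. In each list the core sites were wider than the rest of that list, whose medians were 903, 887.5, 817, 585.5 and 628 bp in the same order. Among the widest core sites in the Sp1 WT list were MTMR4 (5194 bp), a phosphoinositide phosphatase, and RRAS (4611 bp), a small GTPase. The narrowest were at PCGF3 (300 bp), a Polycomb RING finger protein, PRKACA (412 bp), the catalytic subunit of protein kinase A, and SLC25A26 (432 bp), a mitochondrial carrier. PCGF3 was wider with the Sp1 DBD, at 530 bp, than with Sp1 WT.

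**Figure D2:**
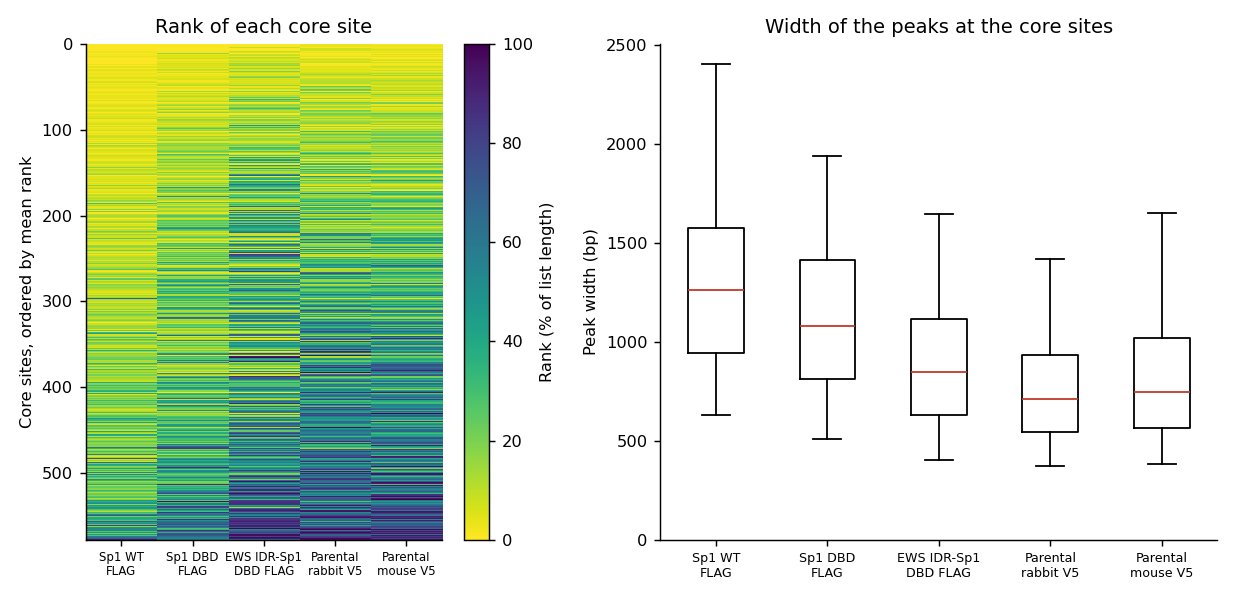
Left, rank of each of the 579 core sites (rows, ordered by mean rank) in the 5 lists (columns), as a percent of list length, with yellow the strongest. Right, width in bp of the peaks at the core sites in each list (red line, median; box, quartiles; whiskers, 5th to 95th percentile). Medians run from 1262 bp with Sp1 WT to 709 bp with rabbit anti-V5.

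The 5 merged summits of a core site lay a median of 94.0 bp apart from first to last (interquartile range 50.5 to 179.5). The spread was at most 50 bp at 145 sites, at most 200 bp at 457 (78.9%) and over 500 bp at 20. It was wider at wide peaks, with a median of 65.0 bp over the 289 sites narrower than the median Sp1 WT width and 135 bp over the other 290 (Spearman's rho of spread and width 0.405 over the 579 sites, a description).

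Set against the distance between replicates, the anti-V5 summits agreed most closely. Between the 2 replicates of a list, single summits lay a median of 34.0 bp apart with Sp1 WT, 38.0 bp with the Sp1 DBD, 36.0 bp with the EWS IDR-Sp1 DBD, 27.0 bp with rabbit anti-V5 and 26.0 bp with mouse anti-V5. Between the rabbit and mouse anti-V5 lists, single summits were 26.0 bp apart, no farther than replicates of either. Between pairs of FLAG lists they were 37.0 to 40.0 bp apart, and between Sp1 WT and the anti-V5 lists 39.0 and 40.0 bp. The largest distances were between the Sp1 DBD or the EWS IDR-Sp1 DBD and the anti-V5 lists, with medians of 49.0 to 52.0 bp, above the median between the replicates of each of these lists.

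**Figure D3:**
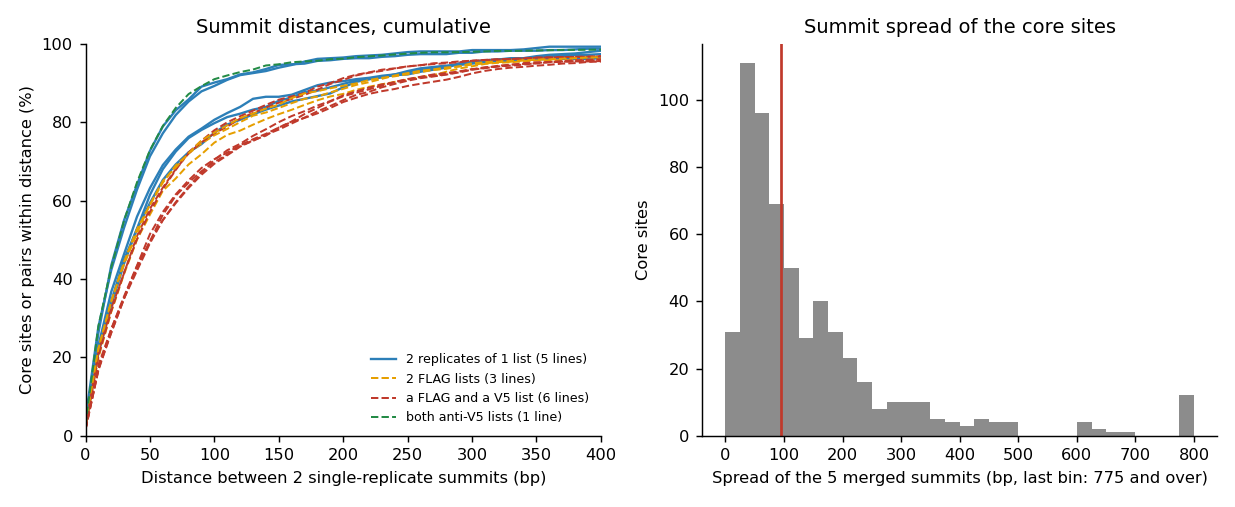
Left, percent of core sites or summit pairs (y axis) whose 2 single-replicate summits lie within the distance on the x axis, for replicates of a list (blue) and for pairs of lists (dashed). Right, number of core sites by spread of the 5 merged summits in 25 bp bins, with the median of 94.0 bp in red. The 6 pairings of a FLAG with an anti-V5 list include the lowest curves.

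The tightest sites had all 5 summits within a few bases. The spread was 3 bp at a site between genes whose nearest start, 11630 bp away, is of MOB2, 5 bp at BBS9, a subunit of the BBSome of cilia, 6 bp in an intron of the pseudogene NCF1B and 12 bp both near DDX11L17 and at COX8A, a subunit of cytochrome c oxidase. The MOB2 and NCF1B sites are in repeated sequence (87.1% and 100% of words), the BBS9 and COX8A sites are not (0% of words). BBS9 had 2 GC boxes within 100 bp of its summit and COX8A had 1.

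The 3 sites with the largest spread, MTMR4, GALNT9 and CCDC12, had Sp1 WT peaks of 3748 to 5194 bp, and in at least 1 list several peaks overlapped the site, of which the one with the longest overlap was used. Over the 568 sites with a single peak in each list the largest spread was 1654 bp. At MTMR4 the Sp1 DBD summits of both replicates were at −3323 and −3300 bp from the merged Sp1 WT summit, while both replicates of the 4 other lists fell within 167 bp of it. At CCDC12 both replicates of the EWS IDR-Sp1 DBD were at 1332 and 1279 bp, and those of the anti-V5 lists at −1435 to −1468 bp. Both Sp1 WT replicates were there at −1123 and −1352 bp from their own merged summit. At GALNT9, a glycosyltransferase gene, the replicate summits were over 1000 bp apart in 4 of the 5 lists. The merged Sp1 WT summit lay more than 1 bp outside the span between the replicate summits at 6 core sites.

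A merged summit could fall between the replicate summits. At SERTAD3, at place 10 by mean rank, the Sp1 WT replicate summits were at −671 and 672 bp from the merged one, the EWS IDR-Sp1 DBD ones at 673 and 641 bp and the 4 anti-V5 ones at −640 to −720 bp. At CLPTM1L the Sp1 WT replicates were at −422 and 423 bp and the other 8 replicate summits at 418 to 442 bp. Of the 20 sites with a spread over 500 bp, 15 had replicate summits over 500 bp apart in at least 1 list. Over the 290 core sites whose replicate summits lay within 100 bp of each other in every list, the median spread was 53.0 bp, and 2 sites still exceeded 500 bp.

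Most core sites lay at promoters. A start of a protein-coding gene was within 1000 bp of the Sp1 WT summit at 478 of 579 sites (82.6%, 95% Wilson interval 79.3 to 85.4) and at 73.8% of the 4572 other Sp1 WT peaks (72.5 to 75.01). The odds ratio was 1.68 (two-sided Fisher's exact test, adjusted p = 4.6e-06 over 5 features). Of the 478 sites, 359 had starts of protein-coding genes only and 119 of lncRNAs as well. A further 29 sites (5.01%) had only lncRNA starts, 21 only starts of other classes, 18 a start between 1000 and 5000 bp away and 33 (5.70%) none within 5000 bp. The Sp1 WT summit was in an annotated exon at 178 sites, in an intron at 165 and between genes at 236, and 20 of the exonic summits were in coding sequence of some transcript.

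Protein-coding starts on each strand within 1000 bp, the arrangement of divergent promoters, were found at 95 core sites (16.4%, 13.6 to 19.6) and 10.0% of other Sp1 WT peaks (9.18 to 10.9, odds ratio 1.76, Fisher's exact test, adjusted p = 1.1e-05). Neither comparison passed the test against the peaks most like the core sites. Against the 565 Sp1 WT peaks in 3 lists, the shares with a protein-coding start were 82.6% and 83.5% (odds ratio 0.932, adjusted p = 0.78) and those with divergent starts 16.4% and 15.6% (odds ratio 1.06, adjusted p = 0.78), and within the strongest 25% of the Sp1 WT list they were 80.3% and 77.9% (odds ratio 1.15, adjusted p = 0.50) and 15.9% and 15.1% (odds ratio 1.07, adjusted p = 0.69), all by Fisher's exact test.

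Summits were mostly upstream of the start. At the 478 core sites with a protein-coding start, the median position of the Sp1 WT summit was −121 bp from it (interquartile range −217 to 1 bp, negative upstream), and 357 summits (74.7%) were upstream. For rabbit and mouse anti-V5 the medians were −128 and −124 bp, with 382 and 378 sites upstream. For the Sp1 DBD and the EWS IDR-Sp1 DBD they were −110.5 and −119.5 bp, with 344 and 342. At the other Sp1 WT peaks with such a start the median was −81.0 bp, and 42.2% had the summit within 100 bp of the start, compared with 36.0% at core sites. These positions were not tested.

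**Figure D4:**
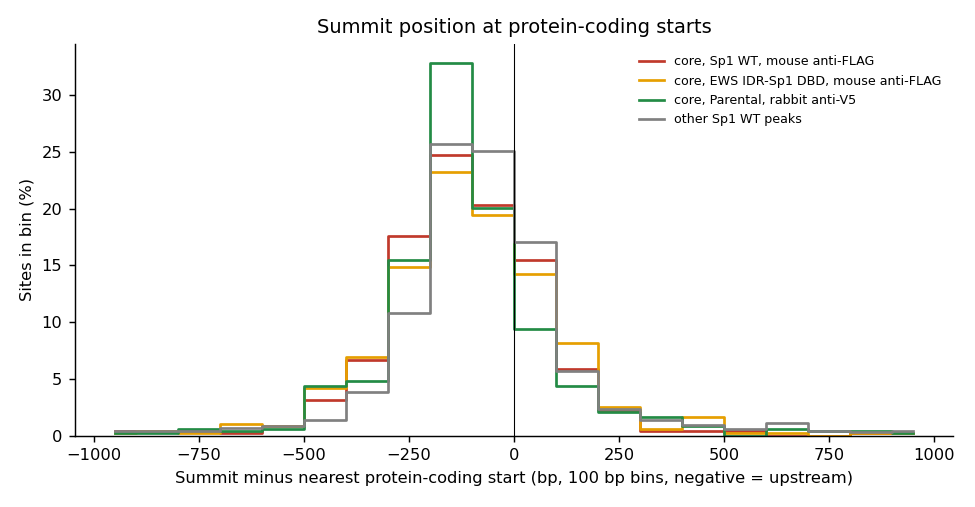
Percent of sites (y axis) by the signed distance in bp from the nearest protein-coding start to the summit (x axis, 100 bp bins, negative upstream), for the core sites with 3 of the 5 lists and for the other Sp1 WT peaks (grey). The bin from −200 to −100 bp is the highest for the rabbit anti-V5 summits of core sites and also for the other Sp1 WT peaks (25.7%), whose bin from −100 to 0 bp is almost as high (25.0%).

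The core sites reached 582 protein-coding genes with a start within 1000 bp, of the 4389 with any Sp1 WT peak there, which is 13.3%. Gene groups are set beside that share. Of genes for RAB, VPS and SEC proteins, which direct membrane traffic, 41 of 125 had a Sp1 WT peak and 13 of those 41 (31.7%) a core site. They were RAB4B, RAB5B, RAB1A, RAB2B, RAB3D, RAB8A, RAB11B, RAB40B, RAB40C, SEC16A, SEC63, VPS26C and VPS35. The highest were RAB4B, at place 22 of 579 by mean rank, and SEC16A, which organises ER exit sites, at place 30. At RAB5B, of early endosomes, the site ranked 47 with Sp1 WT, 57 and 142 with anti-V5, but 536 and 948 with the Sp1 DBD and the EWS IDR-Sp1 DBD.

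Of the DNA replication machinery, 5 of 19 genes with a Sp1 WT peak had a core site: LIG1, the replicative ligase, ORC4 and ORC6, subunits of the origin recognition complex, POLD2 of polymerase delta and RPA3 of the single-strand binding protein RPA. LIG1 was the highest of these, at place 194, and ranked better in the Sp1 DBD (241) and EWS IDR-Sp1 DBD (254) lists than in the Sp1 WT list (940). ORC6 shares its site with VPS35, so that a single peak counts in both groups. Of aminoacyl-tRNA synthetases, 3 of 12 had a core site, the mitochondrial CARS2 and EARS2 and the cytosolic TARS3, whose summit had 12 GC boxes within 100 bp. Zinc finger genes of the ZNF series had 20 of 116 (17.2%), led by ZNF558, ZNF784, ZNF574 and ZNF131.

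Other groups had 0 to 3 genes with a core site. Mitochondrial ribosomal proteins had 3 of 24 (MRPL2, MRPL4 and MRPS16), chaperones 3 of 28 (HSPA8, HSPA1B and DNAJB5), subunits of oxidative phosphorylation 2 of 18 (COX8A and NDUFA11), splicing factors 2 of 20 (SF3B6 and SNRPD2), and RNA polymerase II, TFIID and Mediator 2 of 20 (MED20 and POLR2I). Single genes stood for cytosolic ribosomal proteins (RPS19, 1 of 18), the proteasome (PSMC6, 1 of 16), cyclins and their kinases (CCNK, 1 of 17), ubiquitin-conjugating enzymes (UBE2Z, 1 of 14), SP and KLF factors (SP2, 1 of 13) and cholesterol synthesis (1 of 16). The last was SREBF2, the transcription factor of that pathway, which ranked 2070, 1944, 1722, 920 and 1175. Translation factors had 0 of 25, histone genes 0 of 5, potassium channels 0 of 12, keratins 0 of 2 and HOX genes 0 of 1. The counts are small, several genes share a site, and none was tested.

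Far from any start, 33 core sites were divided between introns (13), exons (3) and sequence between genes (17), and 12 of the 33 were in repeated sequence, compared with 27 of all 579. The highest by mean rank were at ENSG00000290106 (place 13), near EEF2K (place 24, with its summit in an exon of SDR42E2), in an intron of ENSG00000227479 (place 25), in an intron of GRIN2D (place 42), a glutamate receptor subunit, 21840 bp from its start, and in an intron of CAMTA1 (place 68). All 5 were called in each of the 6 anti-V5 lists described next, and 4 of them had 2 or 3 GC boxes within 100 bp of the summit.

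Endogenous Sp1 was also profiled in 6 lists that the rule did not use, from 3 lines with an induced construct (Sp1 WT, Sp1 IDR-CTCF DBD with the DNA-binding domain of the insulator protein CTCF, or Sp1 IDR-LacI with a bacterial repressor), each with rabbit and with mouse anti-V5. Core sites were called again in most of them. In the Sp1 WT line the shares were 85.1% with rabbit (493 of 579, 95% Wilson interval 82.0 to 87.8) and 83.2% with mouse anti-V5 (482, 80.0 to 86.1). In the Sp1 IDR-LacI line they were 92.4% (535, 90.0 to 94.3) and 88.4% (512, 85.6 to 90.8), and in the Sp1 IDR-CTCF DBD line 91.4% (529, 88.8 to 93.4) and 81.9% (474, 78.5 to 84.8). Among the 4572 other Sp1 WT peaks the shares were 13.2% to 26.1%. The odds ratios were 24.6 to 36.0, with adjusted p between 2.2e-264 and 1.0e-213 (two-sided Fisher's exact tests, 6 lists). These lists measure the same tagged protein, with the same antibodies, as 2 of the lists in the rule, and the peaks of a list are not independent, so the tests compare these lists and not cultures. By the rule every core site had a peak in both parental anti-V5 lists. Of all 5151 Sp1 WT peaks, 1575 overlapped the parental rabbit and 1523 the parental mouse anti-V5 list. The choice of sites thus favoured this direction in advance, and no conclusion is drawn from these p-values.

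Narrower comparisons had the same direction. The rule itself favoured that direction wherever the peaks compared could miss a parental anti-V5 list. Of the 565 peaks in exactly 3 lists, 120 missed the rabbit and 92 the mouse parental anti-V5 list. Against the 565 peaks in exactly 3 lists, which were called in 54.7% to 79.5%, the odds ratios were 2.97 to 4.12 (adjusted p between 2.5e-25 and 2.6e-10). Within the strongest 25% of the Sp1 WT list they were 7.21 to 9.84, and within the next 25% 9.71 to 17.3. A comparison chosen after seeing the data held the parental anti-V5 calls equal, with the 671 other Sp1 WT peaks that overlap both parental anti-V5 lists but miss the Sp1 DBD or the EWS IDR-Sp1 DBD. Those were called in 57.5% to 84.9%, and the odds ratios were 1.87 to 3.67 (adjusted p between 1.3e-22 and 4.9e-04). This comparison did not hold peak strength equal, and core sites lay at the strong end of the Sp1 WT list. It therefore does not separate core membership from strength. All p-values in this paragraph are from two-sided Fisher's exact tests, each adjusted over 6 lists.

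Of the 579 core sites, 370 (63.9%) were in all 6 of these lists, 85 in 5 and 3 in none. Of the 565 peaks in 3 lists, 204 (36.1%) were in all 6, and of the 4572 other Sp1 WT peaks 339 (7.41%). Of the 12 sites with the highest mean rank, 11 were in all 6 and PLCD1 in 3. Near the bottom, SAR1A was in 4, SLC31A1 in 3, FER in 2 and ARL3 in 1.

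**Figure D5:**
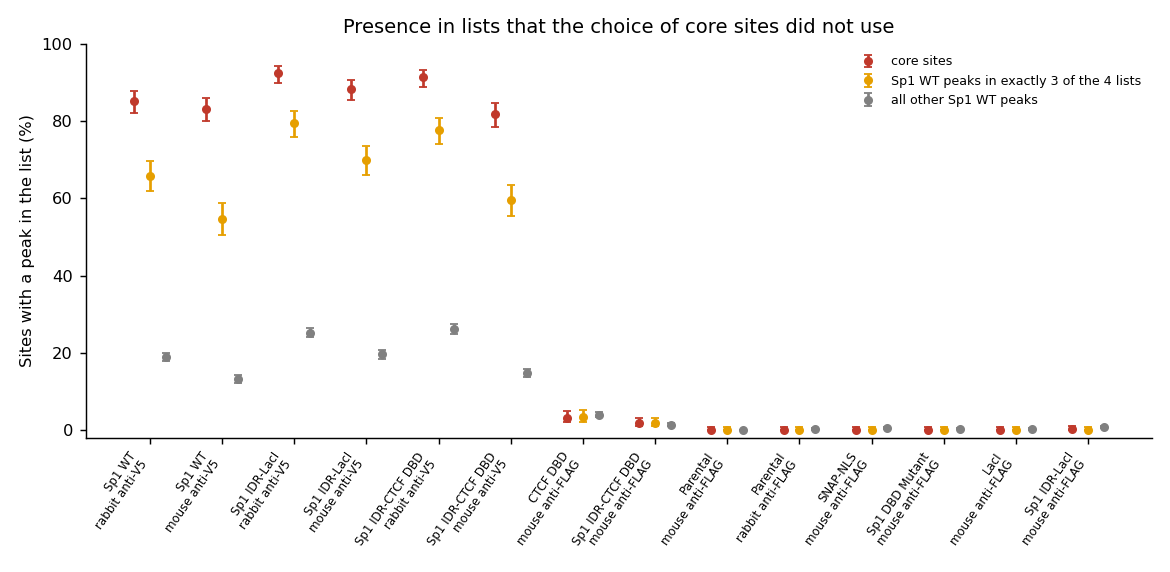
Percent of sites with an overlapping peak (y axis) in each list that the choice of core sites did not use (x axis), for the 579 core sites (red), the 565 Sp1 WT peaks in exactly 3 of the 4 lists (orange) and all 4572 other Sp1 WT peaks (grey, which include the orange ones). Bars are 95% Wilson intervals. The core sites are at 81.9% to 92.4% in the 6 anti-V5 lists, and all 3 sets are at no more than 3.98% in the anti-FLAG lists shown.

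Few Sp1 WT peaks, whether core or not, overlapped a peak in the lists made without the full Sp1 DBD. The shares below are of Sp1 WT peaks and are limited by the length of each list. They do not give the part of a list's own peaks that lay at Sp1 WT peaks. The CTCF DBD list, with 649 peaks, overlapped 18 core sites (3.11%, 1.98 to 4.86) and 182 other Sp1 WT peaks (3.98%). The Sp1 IDR-CTCF DBD list, with 166 peaks, overlapped 10 core sites (1.73%, 0.941 to 3.15) and 63 others (1.38%). Neither difference passed Fisher's exact test (odds ratios 0.774 and 1.26, adjusted p = 0.46 for both, over 2 lists), and the intervals of the shares overlap. The lists of SNAP-NLS, LacI, the Sp1 DBD Mutant and the parental line with each anti-FLAG antibody overlapped 0 of 579 core sites, which allows a share of up to 0.518%, counting error only, and the Sp1 IDR-LacI list overlapped 1. At the other Sp1 WT peaks these lists were also near 0, at 0% to 0.437% and, for Sp1 IDR-LacI, at 0.853%. These lists are short, with 22 to 295 peaks. The authors called peaks against merged control replicates, which can itself lower overlap with lists of control libraries. How far it did so was not tested.

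The GC box was more frequent at core sites. It lay within 100 bp of the Sp1 WT summit at 478 core sites (82.6%, 79.3 to 85.4) and at 68.6% of other Sp1 WT peaks (67.2 to 69.9, odds ratio 2.17, Fisher's exact test, adjusted p = 3.4e-12). Core sites had 2.22 GC boxes per window on average and others 1.52, and 336 core sites (58.0%) had at least 2. In windows of the same length 2000 bp to either side, 6.04% held a GC box, and of 35116 RefSeq promoters (GRCh38.p14) 40.2% did in a window of that length that ends at the start. Against the 565 peaks in 3 lists, the share was 82.6% to 79.8% (odds ratio 1.20, Fisher's exact test, adjusted p = 0.78).

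A GC box lay near the summit in each list. Within 100 bp of the list's own summit it was found at 477 core sites with the Sp1 DBD, 486 with the EWS IDR-Sp1 DBD, 510 (88.1%) with rabbit anti-V5 and 507 (87.6%) with mouse anti-V5, and the median distance of the nearest box from the summit was 23 to 27 bp. It was near the summit in all 5 lists at 410 sites (70.8%) and in none at 31 (5.35%). Of the 12 highest sites, 5 had none within 100 bp of the Sp1 WT summit: CNOT3, SERTAD3, PLCD1, ENSG00000286374 and CLPTM1L, the last 2 in repeated sequence. At SERTAD3 and CLPTM1L the merged summit lay between Sp1 WT replicate summits at −671 and 672 bp and at −422 and 423 bp from it. No replicate summit of any list was within 100 bp of the merged summit there, so that window does not describe the DNA at those summits.

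Summit windows of 500 bp that were CpG-dense (GC content of at least 0.5 and an observed to expected CpG ratio of at least 0.6) made up 87.2% of core sites (84.3 to 89.7) and 75.2% of other Sp1 WT peaks (odds ratio 2.26, Fisher's exact test, adjusted p = 2.5e-11). The difference did not pass Fisher's exact test against the 565 peaks in 3 lists, of which 86.0% were CpG-dense (odds ratio 1.11, adjusted p = 0.78), or at an IDR of at most 0.01 (odds ratio 1.52, adjusted p = 0.11). Repeated sequence was at 27 core sites (4.66%, 3.22 to 6.70) and 7.11% of other peaks (odds ratio 0.639, adjusted p = 0.028, Fisher's exact test). This call was lost at an IDR of at most 0.05 (adjusted p = 0.084), with lists of equal length (adjusted p = 0.26) and against peaks in 3 lists (5.13%, adjusted p = 0.78), all by Fisher's exact test, and at an IDR of at most 0.01 the odds ratio was 1.02. Core sites were on chromosomes 1 to 22 and X and on 2 unlocalised or unplaced scaffolds. Chromosome 19 had the most, 75 of its 491 Sp1 WT peaks (15.3%), followed by chromosome 1 with 66 of 542 (12.2%), and chromosome 21 had the fewest, 3 of 56. Only 12 core sites had another within 10000 bp.

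Of 9 other motifs searched within 100 bp of the Sp1 WT summit on both strands, 2 differed between core sites and other Sp1 WT peaks. The longer GC box GGGGCGGGG, which contains GGGCGG, was at 38.3% and 25.8% (odds ratio 1.79, Fisher's exact test, adjusted p = 5.7e-09), and CCAAT, the core of the element bound by NF-Y, was at 37.5% and 29.1% (odds ratio 1.46, adjusted p = 2.3e-04). In the RefSeq promoter windows they were at 14% and 28.1%. Both differences depended on the peaks compared. Against the 565 peaks in 3 lists, the longer GC box was at 38.3% and 37.2% (odds ratio 1.05, Fisher's exact test, adjusted p = 0.92) and CCAAT at 37.5% and 44.1% (odds ratio 0.761, adjusted p = 0.23). Against the 671 other peaks in both parental anti-V5 lists, a comparison chosen after seeing the data, CCAAT was less frequent at core sites, at 37.5% to 47.2% (odds ratio 0.669, Fisher's exact test, adjusted p = 0.0052), and within the strongest 25% of the Sp1 WT list the shares were 35.8% and 34.6% (odds ratio 1.06, adjusted p = 0.99). TATAAA was at 1.04% of core sites and 2.49% of others (odds ratio 0.409, Fisher's exact test, adjusted p = 0.082). The motifs GCATGCGC (NRF1), CCGGAAG (ETS), AAGATGGC (YY1), TGACGTCA (CREB), CACGTG (E-box) and GGGTGTGG (KLF) were at 0.864% to 7.77% of core sites, with odds ratios of 0.663 to 1.5 and adjusted p of 0.38 to 0.92. All are two-sided Fisher's exact tests adjusted over 9 motifs.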

How the data were processed

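The 38 CUT&RUN samples form 19 peak lists, each from 2 replicates. Per the labels and the methods, the authors' steps were trimming (Cutadapt 2.6), alignment to hg38 (Bowtie2 2.3.5.1), duplicate removal (SAMtools 1.9), peak calling at p = 1e-3 with merged controls (MACS3, version stated as 2.2.7.1) and IDR 2.0.4.2, limited to 0.1. The values used are the −log10 p of each peak and replicate and the score (−log10 of the IDR), both as deposited. The lowest score is 0.999. The merged −log10 p ranked peaks within a list. Which labelled replicate is written first is not given in the sources used here. The 6 differential tables hold the authors' own comparisons and were not used.

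Overlaps were computed in Python 3.11.15 (pandas, NumPy 2.4.6, pysam 0.24.0), with the longest overlap taken as the partner. The number of core sites was 579 with bedtools 2.31.1 too. Code was tested on simulated data. Starts and exons are from GENCODE 44, within 1000 bp of the summit unless stated. A summit was in repeated sequence where at least 50% of the 31-base words within 100 bp have several copies in hg38 (alternate sequences left out). Shares have 95% Wilson intervals and two-sided Fisher's exact tests (SciPy 1.17.1, threshold 0.05) with Benjamini-Hochberg adjustment within a family, and both cover counting error over peaks only. Figures used matplotlib 3.10.9.

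The members, gene lists and tests were chosen with earlier results of these data known. Sites named are the 12 highest and 5 lowest by mean rank over the 5 lists, the 4 smallest and 4 largest in summit spread, the 3 widest and 3 narrowest, up to 4 per gene list, up to 5 without a start within 5000 bp, and the 3 on each side of the limit of the rule. Of these, 2 are not reported here. Those in the strongest 10% of every list, COX8A for its spread, and the gene names of the groups were added after values were seen. Alternatives were stricter IDR, other overlap rules, equal list lengths, no repeated sequence, main chromosomes, other comparison peaks, windows and distances.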

Additional observations from a re-analysis of the deposited data

How the results depend on the processing

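The number of core sites was 448 to 579 under the other overlap rules, an IDR of at most 0.05, equal list lengths, main chromosomes or no repeated sequence, and 223 at an IDR of at most 0.01. In the 6 anti-V5 lists the odds ratio was above 1 and passed the test under each of the 13 alternatives tried, at 1.87 to 38.4. The rule itself favours this direction wherever the peaks compared can miss a parental anti-V5 list, so passing in those settings is not separate evidence. The difference in the GC box did not pass against peaks in 3 lists (odds ratio 1.20) or against other peaks in both parental anti-V5 lists (1.40). For a protein-coding start, the odds ratio was 1.14 at an IDR of at most 0.01, 1.33 with lists of equal length and 1.15 within the strongest 25%, none past the threshold, and it turned to 0.932 against peaks in 3 lists and 0.908 against other anti-V5 peaks. For divergent starts it was 1.06, 1.18 and 1.07 in the same first 3 settings, 1.06 against peaks in 3 lists and 1.70 within the next 25%, none past the threshold, and 0.980 against other anti-V5 peaks. For CpG density it was 1.52 at an IDR of at most 0.01, 1.11 against peaks in 3 lists and 1.15 against other anti-V5 peaks, none past the threshold. For repeated sequence it was 0.651 at an IDR of at most 0.05, 1.02 at 0.01, 0.741 with equal lengths, 0.904 against peaks in 3 lists, 0.795 in the strongest 25%, 0.916 against other anti-V5 peaks and 0.649 without Sp1 WT peaks whose replicate summits lie over 100 bp apart, none past the threshold. The cause of these changes was not tested.

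The CTCF DBD odds ratio turned to 2.12 at an IDR of at most 0.01 and 1.1 against other anti-V5 peaks, and that of the Sp1 IDR-CTCF DBD to 0.975 against peaks in 3 lists and 0.948 in the strongest 25%, with none of them past the threshold. Of the 9 motifs, the longer GC box alone passed, higher at core sites, at an IDR of at most 0.01, with equal lengths and in the strongest 25%. Against other anti-V5 peaks CCAAT alone passed, lower at core sites, which is 1 motif in each of these settings. The number was 0 against peaks in 3 lists (Fisher's exact test, 1 of them under 0.05 unadjusted, the CCAAT motif). The odds ratio of CCAAT turned to 0.761 and 0.669 against peaks in 3 lists and other anti-V5 peaks. Motifs that passed in no setting turned too: the ETS motif to 1.15 (equal lengths), 1.01 (strongest 25%) and 1.01 (replicate summits within 100 bp), the YY1 motif to 0.347 (IDR of at most 0.01), 0.949 (equal lengths) and 0.890 (other anti-V5 peaks), the CREB motif to 4.91 and the E-box to 1.02 (peaks in 3 lists), and within the next 25% the NRF1 motif to 1.3, the CREB motif to 1.74, the E-box to 1.87, the TATA box to 1.16 and the KLF motif to 1.06. The median summit spread was 93.5 bp with a single peak in each list and 53.0 bp over the 290 sites with replicate summits within 100 bp in every list. The comparisons with other anti-V5 peaks and on replicate summits were chosen after seeing the data. No paired analysis was possible because each peak call rests on both replicates, and the rule could not be applied with a replicate left out. Single-replicate −log10 p and summits are given in the report. Depth was not used here, so no limit from it is given.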
